A study of Mus musculus with 10 samples.

Results

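Antigen processing genes were read across 3 populations of endothelial cells sorted from wild-type C57BL/6 mice of 6 to 8 weeks. The 10 genes are the immunoproteasome subunits Psmb8, Psmb9 and Psmb10, the proteasome activator subunits Psme1 and Psme2, the peptide transporter genes Tap1 and Tap2, tapasin (Tapbp), beta-2-microglobulin (B2m) and the MHC class I transactivator Nlrc5. They were taken by symbol, and all 10 of the 10 symbols were found among the 23284 gene symbols of the count table. Lymphatic endothelial cells came from pooled inguinal, axillary, brachial, cervical and mesenteric lymph nodes (LN-LEC, 4 libraries) and from the diaphragm (D-LEC, 3 libraries), and blood endothelial cells came from the same kinds of pooled lymph nodes (LN-BEC, 3 libraries). The labels give no treatment, and every library was a pool of cells that lacked CD45, carried CD31 and were divided by PDPN. The spread between libraries therefore describes pools and not single mice.

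The proteasome cuts cytosolic proteins into peptides. In cells exposed to interferon, and constitutively in many immune cells, the catalytic subunits of the standard particle (encoded by Psmb5, Psmb6 and Psmb7) are replaced by the immunosubunits LMP7 (Psmb8), LMP2 (Psmb9) and MECL-1 (Psmb10), and the PA28 cap (Psme1 and Psme2) can bind the core. Peptides then enter the endoplasmic reticulum through the TAP1-TAP2 transporter, tapasin holds empty MHC class I molecules at the transporter, and the heavy chain reaches the cell surface together with B2M. NLRC5 drives transcription of MHC class I genes and of several genes of this pathway.

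Several of the 10 genes lie together in the MHC region of mouse chromosome 17. Tap1 (mm9, chromosome 17, 34324501 to 34334170, forward strand) and Psmb9 (34319044 to 34324275, reverse strand) are head to head, with 225 bases between their starts, so that a single stretch precedes both. Psmb8 (34335140 to 34338399) and Tap2 (34341424 to 34353266) follow on the forward strand, and Tapbp (34056423 to 34066235) lies on the same chromosome. Among the 5 genes with the largest differences between lymph node and diaphragm cells are Psmb8 and Nlrc5. Their windows held no match to the motifs below and are not printed. The stretches that precede the others of the 5, Tap1 with Psmb9 and B2m, are printed. They were read from the mm9 genome, 5′ to 3′ in the direction of the named gene, over the 250 bases before its start. Capitals mark matches to 3 motifs searched on both strands over the 300 bases from 250 before to 50 after each start: the interferon regulatory factor core AANNGAAA, the Y box CCAAT and an NF-kB motif.
Tap1, chr17:34324251-34324500, forward strand (the reverse strand of its first 25 bases is the start of Psmb9): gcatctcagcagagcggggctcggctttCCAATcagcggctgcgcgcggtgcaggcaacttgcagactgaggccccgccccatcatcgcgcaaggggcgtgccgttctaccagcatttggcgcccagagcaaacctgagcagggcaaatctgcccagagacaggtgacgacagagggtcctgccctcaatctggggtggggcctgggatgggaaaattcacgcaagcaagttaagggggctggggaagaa
B2m, chr2:121973173-121973422, forward strand: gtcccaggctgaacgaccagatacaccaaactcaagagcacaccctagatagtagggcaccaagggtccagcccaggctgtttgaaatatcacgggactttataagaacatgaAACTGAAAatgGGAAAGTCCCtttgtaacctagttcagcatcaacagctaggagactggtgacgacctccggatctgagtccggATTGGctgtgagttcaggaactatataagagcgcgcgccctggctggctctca

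The Y box of the Tap1 stretch starts 222 bases before Tap1 and, read on the other strand, 8 bases before Psmb9. B2m has an interferon regulatory factor core at 137 bases, an NF-kB motif at 126 bases and a Y box at 53 bases before its start. Tap2 has cores at 190 and 135 bases before its start. Tap2 and Psme1 each carry a pair of overlapping cores inside the first exon, and 30 bases around each pair are shown.
Tap2, chr17:34341429-34341458, forward strand: gaccacggcagtgAAGTGAAAGCGAAAgcc
Psme1, chr14:56197336-56197365, forward strand: gtgcTTTCGCTTTCCCTTcccgctgcccac

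The core was matched in 3 of the 10 windows (Psme1, Tap2 and B2m), against 22.2% of the windows of 23099 genes. The Y box was matched in 4 (Psmb9, Tap1, Tapbp and B2m, against 38.0%) and the NF-kB motif in 1 (9.05%). None of these letters were matched in the windows of Psmb8, Psmb10, Psme2 and Nlrc5. Each start is the outermost exon base of the gene as counted here, not a mapped start of transcription. A window may therefore miss the working promoter, and a window without a match does not show that the promoter lacks the motif. The matches describe these windows only, and no binding was measured.

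The libraries held 22429940 to 48906070 counted fragments. Levels below are counts divided by DESeq2 size factors (normalised counts), which compare 1 gene between libraries, and levels of different genes are compared only per kb of exon. The 5 lymphatic markers (Prox1, Lyve1, Flt4, Reln and Pdpn, on which the cells were sorted) had a summed normalised count of 94668 to 119450 in LN-LEC, 387239 to 415551 in D-LEC and 2891 to 7955 in LN-BEC. The 4 blood endothelial genes (Flt1, Nrp1, Vwf and Notch4) summed to 69497 to 72713 in LN-BEC and to at most 1374 in a lymphatic library. Fewer cells of a type and less RNA per cell cannot be told apart in such bulk samples.

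All 10 genes exceeded D-LEC in both lymph node populations, and none passed the test between LN-LEC and LN-BEC. For each of them the lowest of the 7 lymph node libraries lay above the highest of the 3 D-LEC libraries, which held for 15.9% of the 15323 genes tested. With an edgeR adjusted p under 0.05, 24.1% of tested genes exceeded D-LEC in LN-LEC and 25.6% did so in LN-BEC. The share higher in D-LEC, where no member was found, was 21.7% against LN-LEC and 22.5% against LN-BEC. The 10 genes were chosen with earlier results of these data known, so the shares give a background and no independent test. The median log2 difference of the 10 genes was 2.53 for LN-LEC over D-LEC and 2.46 for LN-BEC over D-LEC, beside medians of 0.03 and 0.05 over all tested genes. The sizes differed between genes. Both folds over D-LEC were at least 6.07 for Psmb8, Psmb9, Tap1, B2m and Nlrc5. In LN-LEC and then LN-BEC they were 4.83 and 5.01 for Psmb10 and 3.89 and 3.46 for Tap2. For Psme1, Psme2 and Tapbp they ran from 2.01 to 2.52. Both comparisons share the D-LEC libraries, so their values are given side by side and not as independent results.

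**Figure D1:**
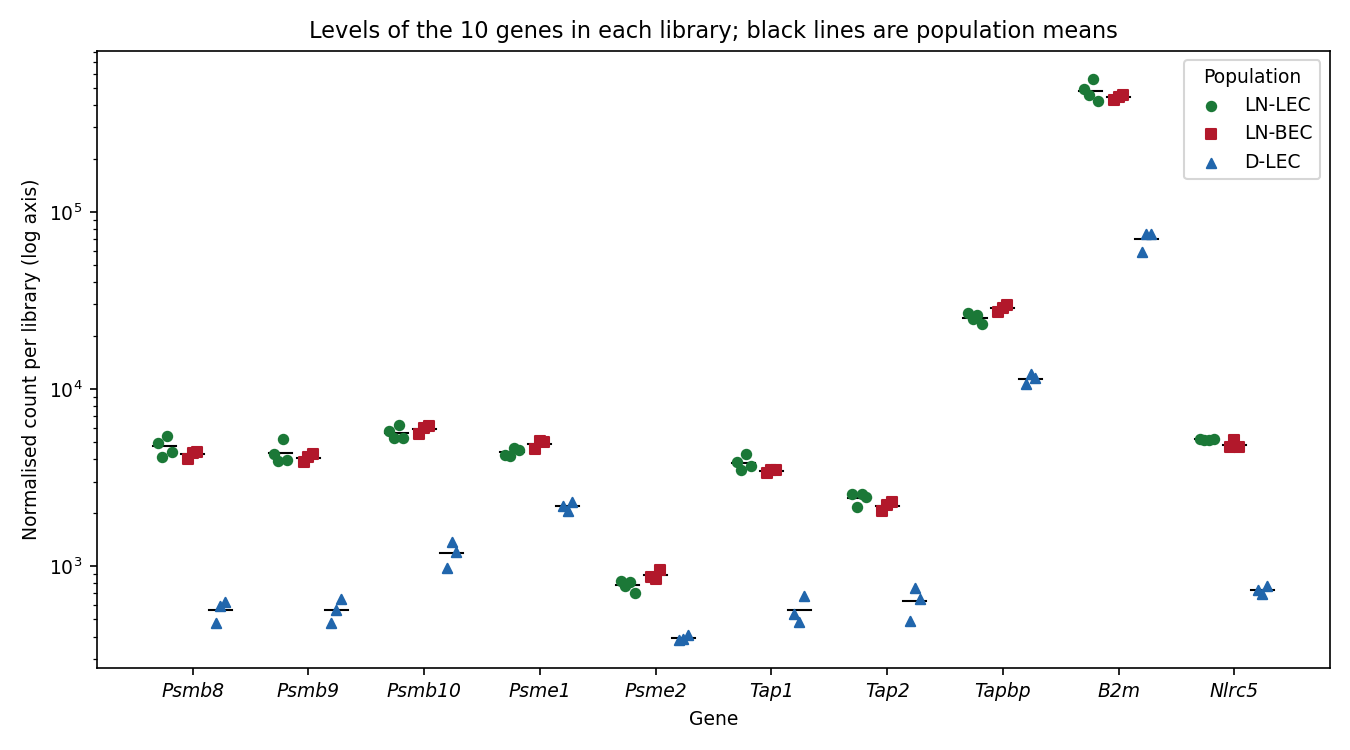
Normalised counts of the 10 genes (log axis) in every LN-LEC, LN-BEC and D-LEC library, with 1 point per library and black lines at population means. For every gene all 7 lymph node libraries lie above the 3 D-LEC libraries, and LN-LEC and LN-BEC points lie close together.

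Psmb8 encodes the immunosubunit with chymotrypsin-like activity. Its normalised counts were 4974.9, 4133.5, 5399.3 and 4430.1 in the LN-LEC libraries, 4039, 4356 and 4428.2 in LN-BEC and 474.3, 593.1 and 628 in D-LEC. The highest D-LEC library was far below the lowest lymph node library. The level exceeded D-LEC by 8.47-fold in LN-LEC (log2 difference 3.08, SE 0.13, 95% interval 6.99 to 10.3-fold, edgeR adjusted p = 3.4e-10) and by 7.57-fold in LN-BEC (log2 difference 2.92, adjusted p = 5.9e-10), the largest folds among the 10 genes in both comparisons.

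Psmb9 encodes the immunosubunit that takes the place of the caspase-like subunit. Its normalised counts were 4317.7, 3908.8, 5184.4 and 3947.3 for LN-LEC, 3855.1, 4119.1 and 4289.5 for LN-BEC and 476.8, 568.1 and 648.6 for D-LEC. The order of populations was that of Psmb8, with LN-LEC and LN-BEC overlapping. The differences from D-LEC were 7.78-fold for LN-LEC (log2 difference 2.96, SE 0.14, edgeR adjusted p = 8.1e-10) and 7.25-fold for LN-BEC (log2 difference 2.86, adjusted p = 1.1e-09).

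Psmb10 (chromosome 8, 108459628 to 108462292, reverse strand) replaces the trypsin-like subunit. It had normalised counts of 5752.7, 5270.9, 6231.5 and 5293.2 for LN-LEC, 5542, 6024.2 and 6171.7 for LN-BEC and 970, 1370.6 and 1206.3 for D-LEC. Its D-LEC level stood above that of the other immunosubunits per kb of exon, at 931 ± 158.6 (SD, n = 3) against 462.1 ± 65.9 for Psmb8 and 700.4 ± 106.7 for Psmb9, in the latter case by less than the sum of the SDs. The difference from D-LEC was 4.83-fold for LN-LEC (95% interval 4.02 to 5.8, adjusted p = 3.9e-09) and 5.01-fold for LN-BEC (95% interval 4.14 to 6.06, adjusted p = 3.5e-09), values on either side of the 5-fold line used for the counts here. With that line, 5 members passed in LN-LEC over D-LEC, where 8.13% of tested genes did, and 6 passed in LN-BEC over D-LEC, where 10.4% did.

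The replaced subunits gave a different picture. Psmb5 (chymotrypsin-like) and Psmb6 (caspase-like) exceeded D-LEC by 1.24-fold in LN-LEC (adjusted p = 0.036 and 0.033) and did not pass the test in LN-BEC, with log2 differences of 0.22 (adjusted p = 0.14) and 0.19 (adjusted p = 0.21). Psmb7 (trypsin-like), the counterpart of Psmb10, was higher in both lymph node populations, by 2.25-fold in LN-LEC (log2 difference 1.17, adjusted p = 3.4e-07) and 2.63-fold in LN-BEC (log2 difference 1.4, adjusted p = 7.8e-08). Its normalised counts were 4445.2 to 5178.8 for LN-LEC, 5367.8 to 6507.7 for LN-BEC and 2026.9 to 2338.3 for D-LEC, without overlap between lymph node and diaphragm libraries.

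Ratios of partner genes within a library do not depend on how the library is scaled. Per kb of exon, the mean ratio of Psmb8 to Psmb5 was 2.36 for LN-LEC, 2.25 for LN-BEC and 0.347 for D-LEC. The ratio of Psmb9 to Psmb6 was 1.9, 1.94 and 0.303 in the same order. The lowest ratios of a lymph node library were 2.1 and 1.76, and the highest of a D-LEC library were 0.395 and 0.333, so that the populations of the 2 tissues did not overlap. For Psmb10 and Psmb7 the mean ratio was 0.876 for LN-LEC, 0.78 for LN-BEC and 0.405 for D-LEC, below 1 in all 10 libraries. In an exact two-sided permutation test of the log2 ratio with 7 lymph node against 3 D-LEC libraries, the 3 ratios were higher in the lymph node by 2.74, 2.66 and 1.04 on the log2 scale. Each p was 0.0167 and 0.025 after adjustment over 6 ratios, the smallest p that 120 arrangements allow. The test treats the 7 lymph node libraries as independent, and the labels do not say whether LN-LEC and LN-BEC pools shared mice. The level of Psmb5 carries a limit, since 33.5% of its 100-base exon windows have an identical copy elsewhere in the genome and fragments from such windows were not counted, so its ratio to Psmb8 can be read between libraries but not as an amount.

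**Figure D2:**
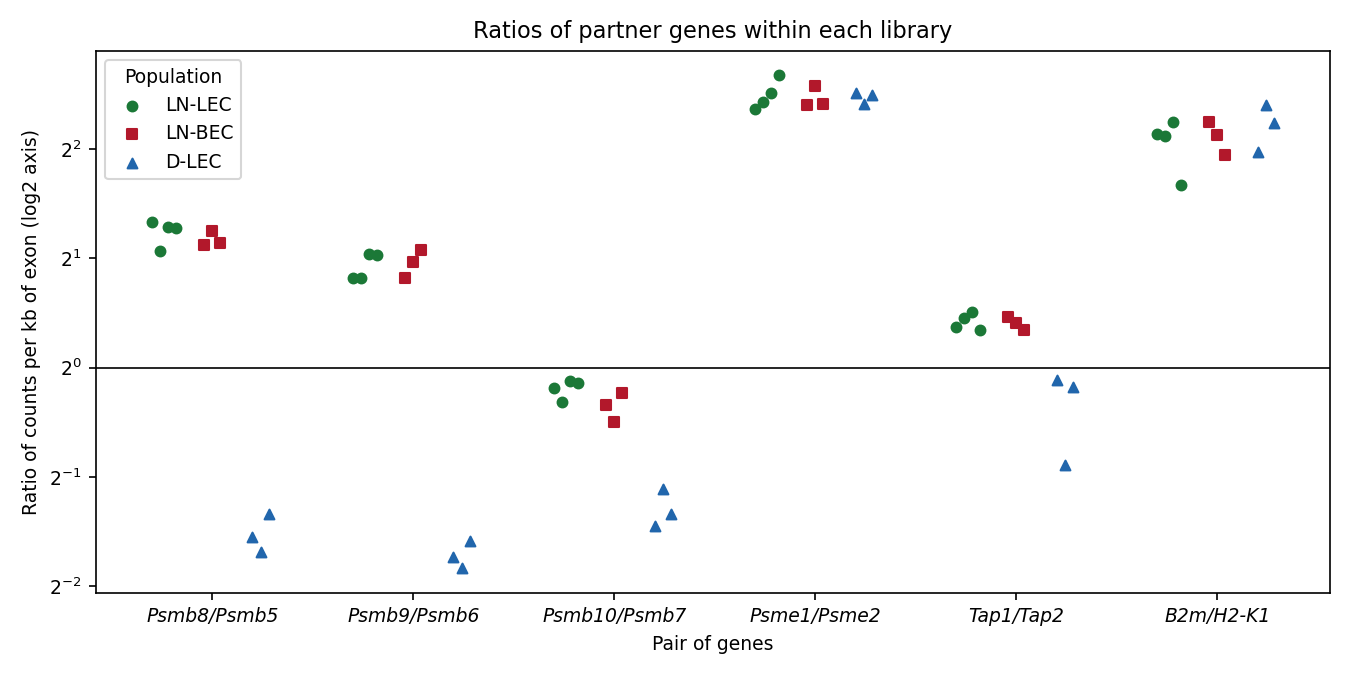
Ratio of counts per kb of exon for 6 pairs of genes (log2 axis) in every library, 1 point per library by population, with a line at a ratio of 1. The immunosubunit ratios and Tap1/Tap2 are lower in all 3 D-LEC libraries than in all 7 lymph node libraries, whereas Psme1/Psme2 and B2m/H2-K1 overlap between populations.

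The other standard subunits of the core and those of the 19S regulator differed from D-LEC by less than 0.5 on the log2 scale. Over all tested genes, 24.1% were higher and 21.7% lower than D-LEC in LN-LEC, and 25.6% and 22.5% in LN-BEC. Of 11 other subunits of the 20S core, 2 exceeded D-LEC in LN-LEC (Psma2 and Psma4, by 0.25 and 0.31 on the log2 scale), none was lower, and the median difference was 0.13. In LN-BEC over D-LEC none was higher and 1 was lower (Psmb2, log2 difference -0.30), with a median of 0.04. Of 17 subunits of the 19S regulator, which recognises ubiquitinated proteins, 3 fell below D-LEC in LN-LEC (Psmc2, Psmc4 and Psmd1) and 3 in LN-BEC (Psmc2, Psmd1 and Psmd6), none was higher, and the largest of these differences was that of Psmd1 in LN-BEC, at -0.49. Among 10 other activators, assembly factors and tissue-specific subunits, Psme3 (PA28 gamma), Psme4 (PA200) and the assembly factor Psmg4 exceeded D-LEC in LN-LEC by 0.39 to 0.47 on the log2 scale. In LN-BEC over D-LEC, 2 of these 10 were higher, Psme4 by 0.29 and the testis subunit Psma8 by 1.7 on the log2 scale (3.24-fold, adjusted p = 0.0067, at 41 to 61.3 against 14.9 to 17 normalised counts). The assembly factor Psmg2 was lower, with a log2 difference of -0.66.

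**Figure D3:**
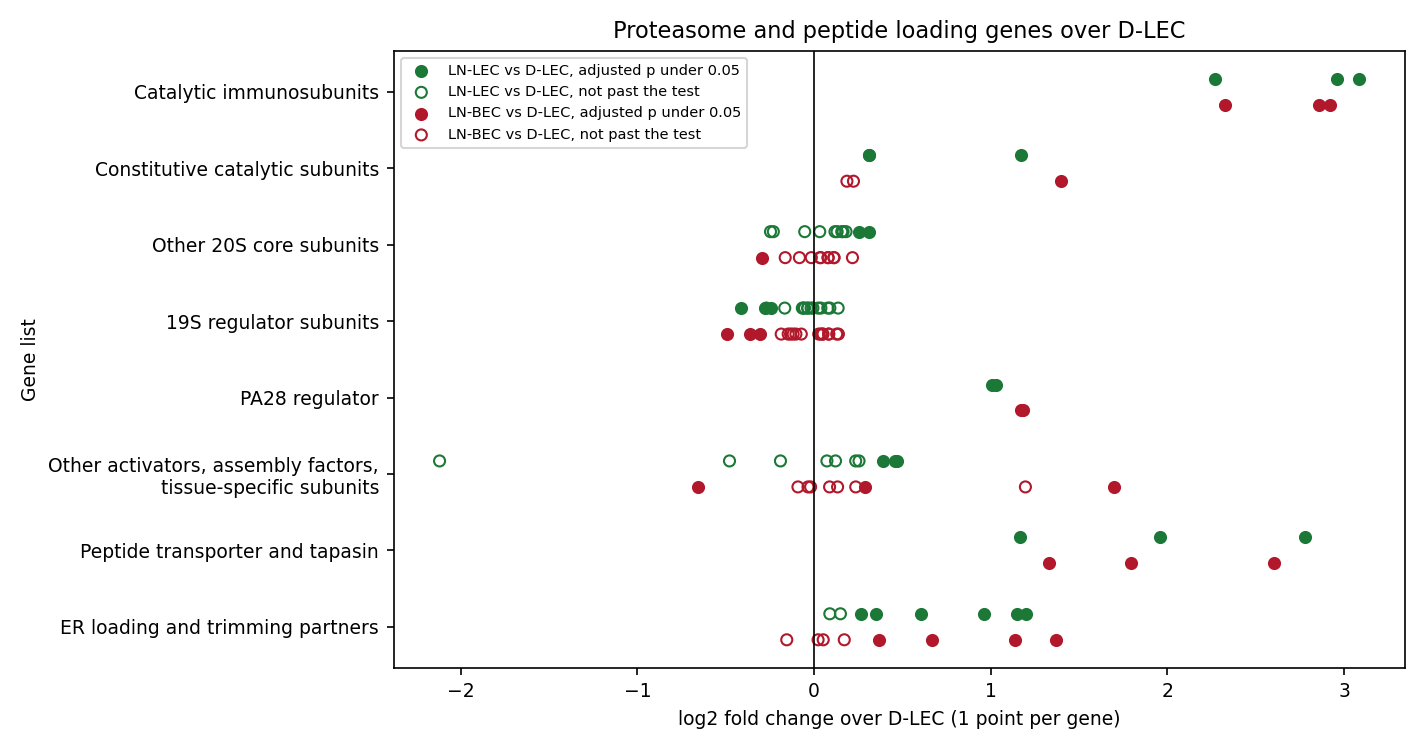
log2 fold change over D-LEC of each gene in 8 lists, 1 point per gene, for LN-LEC (green) and LN-BEC (red), filled where the edgeR adjusted p is under 0.05. The catalytic immunosubunits lie between 2.27 and 3.08, whereas other 20S core subunits lie between -0.30 and 0.31 and 19S subunits between -0.49 and 0.14.

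The PA28 cap differed by less than the immunosubunits. Psme1 (chromosome 14, 56197331 to 56200364, forward strand) encodes its alpha subunit and had normalised counts of 4258.1, 4161.4, 4611.1 and 4497.4 for LN-LEC, 4601, 5060.8 and 5032.1 for LN-BEC and 2192.2, 2052 and 2297 for D-LEC. The differences from D-LEC were 2.04-fold in LN-LEC (log2 difference 1.03, SE 0.08, edgeR adjusted p = 1.8e-07) and 2.25-fold in LN-BEC (log2 difference 1.17, adjusted p = 6.3e-08). Psme2 (chromosome 14, 56206277 to 56209938, reverse strand), the beta subunit, ranged from 705.3 to 827 for LN-LEC, from 845.8 to 948.4 for LN-BEC and from 383.4 to 406.5 for D-LEC. Its differences were 2.01-fold (adjusted p = 1.1e-06) and 2.27-fold (adjusted p = 2.9e-07). Its D-LEC libraries were the closest to each other of any member, with an SD of 3.18% of the mean. The SD was 6.89% in LN-LEC and 6.08% in LN-BEC.

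The ratio of Psme1 to Psme2 was 5.63 for LN-LEC, 5.52 for LN-BEC and 5.55 for D-LEC. Its log2 difference between lymph node and diaphragm was 0.00787 (exact permutation p = 0.983, two-sided), against SDs of 0.058 to 0.13 within populations. The amount of Psme2 may be understated by the counting, although the loss of fragments was not measured. Of its 100-base exon windows 43.8% occur a second time, and a stretch of 795 bases on chromosome 11 (48758856 to 48759650) is 99.4% identical to it. The ratio can therefore be compared between populations, but it does not give the proportion of the subunits' transcripts. Of Psme1, 1.82% of the windows are shared in this way, and of 7 members none are.

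The transporter genes differed from each other in size. Tap1 had normalised counts of 3890, 3489.8, 4310.4 and 3675.1 for LN-LEC, 3340.4, 3486 and 3464 for LN-BEC and 537.3, 480.9 and 680.8 for D-LEC. It exceeded D-LEC by 6.87-fold in LN-LEC (log2 difference 2.78, SE 0.12, edgeR adjusted p = 6.8e-10) and by 6.07-fold in LN-BEC (log2 difference 2.60, adjusted p = 1.3e-09). These folds lay below those of Psmb9, its neighbour across the stretch of 225 bases, and nearer to those of B2m and Nlrc5.

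Tap2, whose product forms the transporter together with TAP1, had normalised counts of 2543.2, 2150.5, 2567.9 and 2446.1 for LN-LEC, 2039.6, 2213 and 2302.3 for LN-BEC and 490.7, 753.5 and 651.1 for D-LEC. It exceeded D-LEC by 3.89-fold in LN-LEC (log2 difference 1.96, SE 0.13, adjusted p = 4.7e-08) and by 3.46-fold in LN-BEC (log2 difference 1.79, adjusted p = 1.3e-07). Per kb of exon the ratio of Tap1 to Tap2 was 1.27 to 1.42 in the LN-LEC libraries, 1.27 to 1.38 in LN-BEC and 0.539 to 0.924 in D-LEC. Tap1 was the more abundant of the pair in the 7 lymph node libraries and the less abundant in the 3 D-LEC libraries, with a log2 difference of 0.81 (exact permutation p = 0.0167, adjusted over 6 ratios 0.025). The 3 D-LEC ratios varied most (SD 0.43 on the log2 scale), and without D-LEC replicate 2, the lowest, the difference was 0.56.

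Tapasin was among the more abundant members. Tapbp ranged from 23345.5 to 26939.6 normalised counts for LN-LEC, from 27266.1 to 29794.5 for LN-BEC and from 10619 to 12072.3 for D-LEC. The differences from D-LEC were 2.25-fold in LN-LEC (log2 difference 1.17, adjusted p = 1.6e-07) and 2.52-fold in LN-BEC (log2 difference 1.33, adjusted p = 5.7e-08). Of 8 partners in loading and trimming, 6 exceeded D-LEC in LN-LEC (24.1% of tested genes did) and 4 in LN-BEC (25.6%). None was lower (21.7% and 22.5% of tested genes were). The aminopeptidase Erap1, which trims peptides, was 2.22-fold and 2.2-fold higher, and the tapasin relative Tapbpl was 2.3-fold and 2.59-fold higher. The chaperone calreticulin (Calr) was 1.52-fold higher in LN-LEC, whereas its log2 difference in LN-BEC was 0.05 (adjusted p = 0.71).

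B2m (chromosome 2, 121973423 to 121978818, forward strand) encodes the light chain shared by MHC class I molecules. Its normalised counts were 494797.5, 454795.5, 563879.2 and 420443.6 for LN-LEC, 427751.4, 443449.5 and 458159.6 for LN-BEC and 59604.8, 74522.6 and 75279.4 for D-LEC. This single gene took 1.37% to 1.99% of all counted fragments of an LN-LEC library, 1.22% to 1.37% of an LN-BEC library and 0.202% to 0.254% of a D-LEC library. It exceeded D-LEC by 7.02-fold in LN-LEC (log2 difference 2.81, SE 0.13, edgeR adjusted p = 9.4e-10) and by 6.37-fold in LN-BEC (log2 difference 2.67, adjusted p = 1.5e-09). Even so, B2m ranked 6 of 15323 genes per kb of exon in D-LEC, beside rank 3 in LN-LEC and rank 4 in LN-BEC.

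The classical heavy chain gene H2-K1 followed B2m closely, exceeding D-LEC by 7.88-fold in LN-LEC and 6.89-fold in LN-BEC. The ratio of B2m to H2-K1 per kb of exon was 3.18 to 4.75 for LN-LEC, 3.86 to 4.75 for LN-BEC and 3.93 to 5.3 for D-LEC. The populations overlapped, and the log2 difference of -0.134 between lymph node and diaphragm gave an exact permutation p of 0.4 (two-sided, adjusted over 6 ratios 0.48). Of 19 heavy chain genes and relatives 16 were tested. In LN-LEC 10 stood above D-LEC (24.1% of tested genes did) and 1 below (21.7%). In LN-BEC 11 stood above (25.6%) and 3 below (22.5%). H2-D1 was 4.43-fold and 3.45-fold higher, and the nonclassical H2-M3, which presents formylated peptides, was 2.37-fold and 1.58-fold higher. Fcgrt, which binds IgG with B2M and carries no peptide, was lower than in D-LEC in both, with log2 differences of -0.33 and -1.19. Counts of the H2-Q and H2-T genes are uncertain, because these genes are close copies of each other. H2-D1 has a limit too, since 15.9% of its exon bases belong to another symbol and 5.68% of its 100-base windows have an identical copy.

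Nlrc5 (chromosome 8, 96996663 to 97051172, forward strand) was the least variable member within LN-LEC. Its normalised counts were 5247.1, 5171.9, 5144.9 and 5195.8 for LN-LEC, 4688.5, 5165.5 and 4693.9 for LN-BEC and 736.6, 699.3 and 771.7 for D-LEC. The SD was 0.837% of the mean in LN-LEC and 4.92% in D-LEC. The differences from D-LEC were 7.16-fold in LN-LEC (log2 difference 2.84, SE 0.08, edgeR adjusted p = 1.5e-11) and 6.62-fold in LN-BEC (log2 difference 2.73, adjusted p = 2.5e-11). Per kb of exon it had the lowest mean level of the 10 genes in all 3 populations. The means were 747.3 ± 6.26 (SD, n = 4) for LN-LEC, 698.2 ± 39.4 (n = 3) for LN-BEC and 106 ± 5.21 (n = 3) for D-LEC. In LN-LEC the means of Nlrc5 and Psme2 (796.8 ± 54.9) differed by less than the sum of their SDs.

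**Figure D4:**
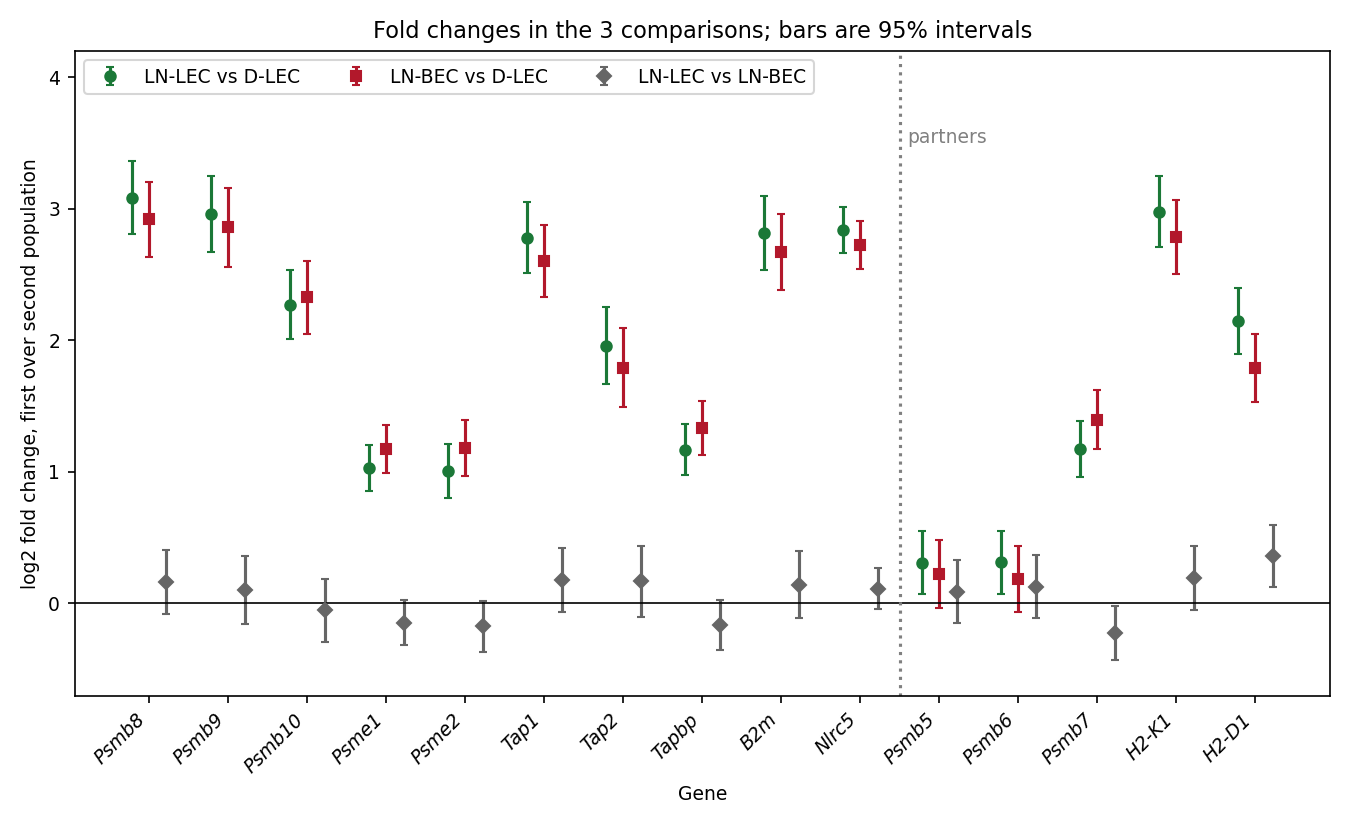
log2 fold changes with 95% intervals of the 10 genes and 5 partner genes (right of the dotted line) in LN-LEC over D-LEC, LN-BEC over D-LEC and LN-LEC over LN-BEC. The differences from D-LEC run from 1.01 (Psme2) to 3.08 (Psmb8) in LN-LEC, and the intervals of LN-LEC over LN-BEC include 0 for all 10 genes.

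Per kb of exon, the order in LN-LEC ran from B2m (563495 ± 71810, SD, n = 4) through Tapbp (9185 ± 575) to Psmb9 (5384 ± 735.3), Psme1 (4485 ± 212.9), Psmb10 (4439 ± 357.7) and Psmb8 (3871 ± 461), then Tap1 (1302 ± 119.6), Tap2 (974.7 ± 77), Psme2 (796.8 ± 54.9) and Nlrc5. From Psmb9 to Psmb8 each pair of neighbours differed by less than the sum of their SDs, and the place of Psme2 is uncertain for the reason given. In D-LEC the order was another. Psme1 (2232 ± 125.9) came next after B2m and Tapbp, above all 3 immunosubunits, and Tap2 (253.7 ± 53.2) stood above Tap1 (192 ± 34.9), although these 2 means differed by less than the sum of their SDs.

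Between LN-LEC and LN-BEC the 10 genes were close. With edgeR none passed an adjusted p under 0.05 in either direction, where 19.8% of tested genes stood higher in the lymphatic and 18.4% in the blood population. None had an unadjusted p under 0.05 either (45.7% of tested genes did), and none was called by DESeq2 (40.0% of the 14991 genes to which it gave an adjusted p). The log2 differences of LN-LEC over LN-BEC ran from -0.17 for Psme2 (adjusted p = 0.15) to 0.18 for Tap1 (adjusted p = 0.24). The 95% intervals reached at most 0.44 on the log2 scale (Tap2), a 1.35-fold difference, so larger differences lay outside all 10 intervals, while smaller ones may exist. Psmb8 had an interval of -0.08 to 0.41 and B2m of -0.11 to 0.40.

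For most of the 10 genes the LN-LEC and LN-BEC libraries overlapped. All LN-LEC libraries lay above all LN-BEC libraries for 1 gene (Tap1), as for 22.4% of tested genes, and all LN-BEC libraries lay above all LN-LEC libraries for 2 (Psme2 and Tapbp), as for 22.5%, so that these counts were no higher than those over all genes. The 6 ratios did not separate the lymph node populations, with log2 differences from -0.0647 to 0.167 and exact permutation p-values from 0.114 to 0.971. With 4 against 3 libraries the smallest two-sided p is 0.0571, so that this test could not pass 0.05 and the ranges of the ratios are the result.

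The order of libraries within a population was partly shared by the 10 genes. LN-LEC replicate 3 had the highest normalised count of the 4 LN-LEC libraries for 7 genes (25.5% of tested genes) and the lowest for Nlrc5, and replicate 2 was the lowest for 6 (25.3%). Psme2 and Tapbp were highest in LN-LEC replicate 1 and, with B2m, lowest in replicate 4. LN-BEC replicate 3 was the highest of its population for 7 (40.8% of tested genes) and replicate 1 the lowest for 9 (32.8%). D-LEC replicate 3 was the highest for 7 (31.1%) and replicate 1 the lowest for 7 (36.6%), whereas replicate 2 was the highest for 3 genes and the lowest for 3 others. The replicates are numbered by accession only, and no label gives a sorting day or batch.

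Markers of other cells moved with the populations. The summed normalised count of 19 leukocyte markers was 729.8 to 896.3 for LN-LEC, 1539.8 to 2305.6 for LN-BEC and 159.5 to 317.9 for D-LEC, where 1 of the 19 was at 0 in every library. Of the 18 tested, 7 exceeded D-LEC in LN-LEC (24.1% of tested genes did) and 14 in LN-BEC (25.6%). For 11 LN-LEC was below LN-BEC (18.4% of tested genes). Ptprc (CD45) itself had 33.7 to 50.8 normalised counts for LN-LEC, 208 to 324.3 for LN-BEC and 9.09 to 21.4 for D-LEC. The sums of the populations did not overlap. Of 9 skeletal muscle markers 8 were higher in D-LEC than in LN-LEC (21.7% of tested genes were) and than in LN-BEC (22.5%). Ttn was lower in D-LEC, by 4.4-fold than in LN-LEC and 3.76-fold than in LN-BEC. The sum of all 9 was 3424.3 to 3991.3 for LN-LEC, 2863.2 to 3513.7 for LN-BEC and 1598.1 to 2326.5 for D-LEC. Without Ttn it was 985.1 to 1380.7 in D-LEC, at most 0.00467% of the normalised counts, against 32.1 to 104 in the lymph node libraries. The summed count of 6 fibroblastic reticular cell and pericyte markers overlapped between the populations (1301.5 to 3518 for LN-LEC, 1724.4 to 4619.3 for LN-BEC and 942.8 to 3742.3 for D-LEC). Of the 6, Des and Pdgfrb exceeded D-LEC in LN-LEC (1.97-fold and 2.72-fold) and in LN-BEC (3.18-fold and 9.92-fold), and Pdgfrb was 3.66-fold higher in LN-BEC than LN-LEC, at 63.5 to 123.1 normalised counts for LN-LEC, 313.1 to 358.9 for LN-BEC and 24 to 50.5 for D-LEC. The part of these cells in the differences was not tested.

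Regulators were read from a list of 20 genes. It holds transcription regulators and genes of interferon signalling, namely the receptor genes Ifnar1, Ifnar2, Ifngr1 and Ifngr2, the kinases Jak1 and Jak2, and Socs1. In LN-LEC over D-LEC 10 were higher (24.1% of tested genes were) and 2 lower (21.7%). In LN-BEC over D-LEC 12 were higher (25.6% of tested genes) and 3 lower (22.5%). The medians were 0.27 and 0.5 on the log2 scale. Irf1, an activator of several of these genes, exceeded D-LEC by 3.16-fold in LN-LEC and 4.56-fold in LN-BEC (adjusted p = 3.3e-07 and 2.9e-08). The lower genes were Nfyb and Nfyc in LN-LEC, with log2 differences of -0.39 and -0.36. In LN-BEC they were Nfya, Nfyb and Nfkb1, with log2 differences of -0.56, -0.29 and -0.29. Irf9, Rfx5, Rfxank and Rela passed the test in neither of these comparisons.

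Between LN-LEC and LN-BEC 12 of the 20 genes of this list differed, 5 in favour of LN-LEC and 7 of LN-BEC, where 38.2% of all tested genes did. Irf1 was lower in LN-LEC, at 2181.4 to 3094.8 normalised counts against 3603.9 to 3710 in LN-BEC (log2 difference -0.53, adjusted p = 0.0049). The kinase Jak1 went the other way, with 42128 to 45255.5 for LN-LEC, 14438.4 to 15955.7 for LN-BEC and 7470.4 to 7907.4 for D-LEC (LN-LEC over LN-BEC 2.87-fold, adjusted p = 6.4e-09). The feedback inhibitor Socs1 stood 2.82-fold above LN-BEC in LN-LEC (adjusted p = 2.5e-06). Ciita, the class II counterpart of Nlrc5, had at most 50.9 normalised counts for LN-LEC, 56.7 to 112 for LN-BEC and at most 16.5 for D-LEC.

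The average profile of the 10 genes over the 10 libraries was used to find the genes most like it among 10221 tested genes with a mean normalised count of at least 100. Likeness was the root mean square difference between centred log2 profiles, where 0 is identity. The 10 nearest genes outside the list were Iigp1, Dhdh, Parp14, C1ra, Decr1, Fbxl7, Il13ra1, Irgm2, Rinl and H2-D1, at 0.0928 to 0.204. Of the members, Psmb10 (0.101) and Tap2 (0.174) stood nearest to their own average and Psme2 (0.519) and Psme1 (0.515) farthest. Iigp1, an interferon-inducible GTPase, had mean normalised counts of 9688 for LN-LEC, 9216 for LN-BEC and 2077 for D-LEC.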

How the data were processed

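RNA of 10 pools of sorted endothelial cells from lymph nodes and diaphragm was amplified and sequenced as read pairs. The authors trimmed the reads, used STAR to align them to mm9 and obtained exon counts per gene symbol from featureCounts 1.4.4 (per the file headers, both ends mapped, strand ignored, several-place fragments not counted), and the deposited values are these raw counts with the exon length of each gene. The version of STAR is not given in the sources used here.

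Counts were tested with edgeR 4.0.16 in R 4.3.3, using TMM factors, 1 mean per population over all 10 libraries, a robust quasi-likelihood F-test and Benjamini-Hochberg adjustment within each comparison. The 15323 genes tested had a mean normalised count of at least 1 in at least 1 population, after 3828 predicted genes and clones were left out, and all 10 members passed. A gene was called at an adjusted p under 0.05, and folds were also read at 5. SE is the log2 difference divided by the square root of F. Levels are counts over DESeq2 1.42.0 size factors. Libraries held 22429940 to 48906070 fragments. As each library is a pool, p-values measure the spread between pools. Ratios were compared by an exact two-sided permutation test (2 times the smaller tail), adjusted over 6. The edgeR steps were run on simulated counts in which some genes were raised in LN-LEC only. That setting is simpler than these data, where genes differ in both directions. Windows of 100 exon bases were searched for identical copies in mm9 (Python 3.11.15, BLAST+ 2.17.0). Alternatives were another tool, scaling and filters, the 2 populations alone and the omission of each library.

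The named genes are the 10 members, lists of proteasome, loading, heavy chain, regulator and marker genes, and the 10 other genes nearest to the members' mean profile (mean normalised count of at least 100, log2 of the count plus 1). A gene of the regulator list and a motif are not reported here. The members and lists were chosen with earlier results of these data known.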

Additional observations from a re-analysis of the deposited data

How the results depend on the processing

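The counts of members past the test (10, 10 and 0) were unchanged with DESeq2, with other size factors, without a filter on low counts, with edgeR's filterByExpr, with predicted genes kept, with only the populations compared and without each library in turn. The count at 5-fold or more moved between 5 and 6 in both comparisons with D-LEC: it was 6 for LN-LEC without D-LEC replicate 2, and 5 for LN-BEC with predicted genes kept, with only the 2 populations compared and without any of LN-BEC replicate 2, LN-BEC replicate 3 and D-LEC replicate 1. No paired analysis was possible because the labels give the libraries no shared replicate numbers. Depth did not limit the members, whose lowest level in a library was 383.4 normalised counts (Psme2), but Psme2 and Psmb5 may lose fragments to identical copies.

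Leaving out 1 library, the log2 differences of ratios between lymph node and diaphragm were 2.65 to 2.83 (Psmb8/Psmb5), 2.6 to 2.73 (Psmb9/Psmb6), 0.97 to 1.14 (Psmb10/Psmb7), 0.56 to 0.95 (Tap1/Tap2), -0.03 to 0.03 (Psme1/Psme2) and -0.25 to -0.03 (B2m/H2-K1). With 2 D-LEC libraries left the smallest exact permutation p is 0.0556, so that the first 4 could not pass the threshold there (adjusted p = 0.083 in each), and this says nothing of their stability. Between LN-LEC and LN-BEC the ranges of the ratios that changed sign were -0.09 to 0.03 (Psmb9/Psmb6), -0.03 to 0.09 (Psme1/Psme2), -0.02 to 0.04 (Tap1/Tap2) and -0.14 to 0.06 (B2m/H2-K1), all around 0, and the cause was not tested. Raw counts in place of counts per kb changed none of these differences, since the exon length cancels.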

Other observations

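A pair of tissue-specific core subunits was read beside the 10 genes. Psma8, the core subunit of testis, had 41 to 61.3 normalised counts in LN-BEC libraries, 3.81 to 17 in LN-LEC libraries and 14.9 to 17 in D-LEC libraries, and was 4.51-fold lower in LN-LEC than LN-BEC (edgeR adjusted p = 0.00086). Psmb11, the thymus subunit, stayed at 10.4 normalised counts or fewer in every library, with 0 to 1.3 for LN-LEC, 3.15 to 10.4 for LN-BEC and 2 to 3.78 for D-LEC, and passed the edgeR test between LN-LEC and LN-BEC (adjusted p = 0.015).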
